A study of Mus musculus with 3 samples.

Results

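Strong and weak early-gene cells were the 2 ends of 1 microglia library. Each cell barcode of library 3 with at least 2000 UMIs (unique molecular identifiers, each standing for 1 counted transcript) was ranked by the share of its UMIs that fell on Fos, Fosb, Jun, Klf4, Dusp1 and Egr1. The 800 highest cells, called strong here, were set against the 800 lowest, called weak, out of 3284 ranked cells in library 3 and 7522 cells in all. The study sequenced YFP (+) microglia sorted from the lumbar spinal cord of naive animals and of animals 24 h and 48 h after sciatic nerve transection, 1 library for each, with 3 animals pooled per group. All were C57BL/6 mice carrying Cx3cr1-creER-yfp on 1 allele, so that the Cx3cr1 promoter drove the reporter used for sorting, and a sort on it takes any cell that uses this promoter. Cord tissue was dissociated, cleared on Percoll and sorted with size selection and doublet exclusion into serum-free medium with TGF-β2, IL34 and cholesterol. Cells of the libraries differ in a barcode suffix of 1, 2 or 3 that no label ties to a time point, so library 3 is described here without one. Cells of 1 library are not replicates, and no test was made. Ratios carry exact 95% intervals for counting error alone, and these say nothing of the variation among cells or animals.

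Immediate early genes are transcribed within minutes of a stimulus because the factors that start them are already in the cell. Many of their products are transcription factors such as the AP-1 proteins of the Fos and Jun families, while others, such as the MAP kinase phosphatases and the mRNA decay factors, shut the signal and the transcripts down again. In microglia they are known to respond to injury signals and also to the dissociation of tissue, and these cannot be told apart in sorted cells of 1 library.

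Among the other genes, the strong cells had more transcripts of the remaining AP-1 partners Junb and Jund, the Kruppel-like factors Klf2 and Klf6, the decay and growth regulators Btg2 and Zfp36, and the signalling brakes Socs3, Rgs1 and Dusp6, each by a ratio between 2.04 and 2.64. Among those with at least 400 UMIs in the thinned library, the one with the highest ratio was on none of the lists: Tmx4, which encodes a thioredoxin-related membrane protein of the endoplasmic reticulum, had 1638 UMIs in strong and 612 in weak cells. The study also lists this gene among those that differed between its time points in cells of the DNA synthesis phase. The microglia identity genes P2ry12 and Tmem119 stood at nearly the same level in both arms, with ratios of 1.03 and 1.025 (Tmem119 was chosen after its value was seen). Ribosomal protein and mitochondrial transcripts were lower in strong cells, by summed ratios of 0.898 and 0.869.

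The 6 genes the cells were chosen by give the scale of the split and are not a finding. Their share of a cell's UMIs ran from 1.64% to 3.01% in strong cells (median 1.89%), from 0.201% to 0.801% in weak cells (median 0.683%), and had a median of 1.203% in the 1684 cells between. At the limits, the last strong cell held 1.6414% and the next cell below it 1.6393%, and the last weak cell held 0.8015% and the next above it 0.80156%. The limits thus cut through a continuous range. The share had its peak of 348 cells at 0.7 to 0.8%. Above it lay a broad shoulder, with 187 cells at 1.0 to 1.1% and 204 at 1.3 to 1.4%. These counts are close, and a second peak was not tested for. The SD of the share over the library was 0.494%, where 1 common share would give 0.152% from counting at the cells' depth.

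**Figure D1:**
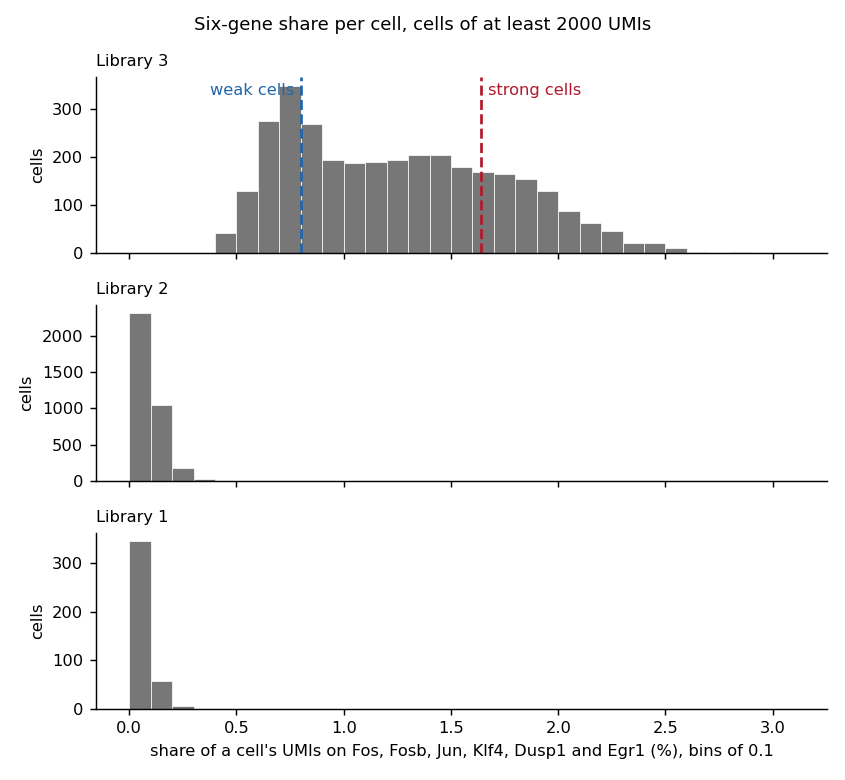
Number of cells (vertical axis) in bins of 0.1% of the share of UMIs on the 6 ranking genes (horizontal axis), for cells of at least 2000 UMIs in libraries 3, 2 and 1, with dashed lines at the last strong and the last weak cell of library 3. Library 3 spreads from 0.201% to 3.01%, while the highest cell is at 0.595% in library 2 and at 0.294% in library 1.

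After each cell was thinned at random to 2000 UMIs, so that all cells had the same depth, the AP-1 subunits Fos, Fosb and Jun had 10070, 1476 and 11405 UMIs in strong cells and 2991, 344 and 4241 in weak cells. The transcription factors Klf4 and Egr1 had 1219 and 1934 UMIs in strong and 318 and 902 in weak cells, and Dusp1, a phosphatase that inactivates MAP kinases, had 5016 and 1768. When the UMIs of each cell were divided at random into 2 equal parts and the cells were chosen on one part, the other part still held medians of 1.86% and 0.726% of these genes. Measured there, the ratios were 2.82 for Fos, 3.57 for Fosb, 2.25 for Jun, 3.53 for Klf4, 2.40 for Dusp1 and 1.80 for Egr1.

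Weak cells of library 3 were not early-gene negative. Their median of 13 six-gene UMIs per thinned cell compared with 3 in the 800 highest and 0 in the 800 lowest cells of library 2. The highest cell of library 2 held a share of 0.595% and 9 of its 3569 cells exceeded the second lowest weak cell, at 0.388%. The lowest weak cell, at 0.201%, was unusual in having 3826 genes among 3973 UMIs, and its barcode occurred in library 2 with 4047 genes among 4183 UMIs. Without it the counts of 55 and 9 genes given below stayed as they were, and the early-gene list below had a ratio of 1.966 in place of 1.968. In all, 7 strong and 2 weak cells carried a barcode that another library also held, of 21 such barcodes in library 3, and without all of them 54 in place of 55 genes were higher.

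The arms differed in depth and in composition. Strong cells had a median of 5991 UMIs (range 2097 to 22106) and weak cells 5025 (2055 to 13191), with 1091 and 1116 genes per cell after thinning. Mitochondrial UMIs made up 1.12% and 1.28% of a cell's UMIs, and ribosomal protein UMIs 8.53% and 9.52%. When the cells were ranked within 10 bins of total UMIs, the median depths became 5768 and 5770, and the early-gene list below had a ratio of 1.88 in place of 1.97. Doublets were not called here.

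Both arms were microglia by their markers. Of the 10 microglia markers all were above the count filter, with 28 to 98 UMIs per thinned strong cell (median 53) and 10 to 85 per weak cell (median 51). Markers of other cell types had few UMIs. Counts were lower in strong cells for neurons and neutrophils and closer between the arms for the others. The ratio intervals of neurons (0.0036 to 1.374) and neutrophils (0.16 to 1.007) both include 1. The 6 neuron markers had 1 UMI in strong and 6 in weak cells together, the 7 monocyte markers 6 and 6, the 7 perivascular macrophage markers 2 and 2, the 5 neutrophil markers 8 and 19, the 5 T and NK cell markers 1 and 0, and the 6 red blood cell markers 20 and 19. The 6 markers each of astrocytes, oligodendrocytes and endothelial cells had 175 and 186, 122 and 111, and 55 and 46 UMIs. A UMI of the astrocyte markers was in 19.0% of strong and 20.0% of weak cells, and of the oligodendrocyte markers in 13.5% and 13.4%. Some list members were at 0 in both arms and are named for that: Snap25 and Syt1 of neurons, Aqp4 and Aldh1l1 of astrocytes, Cldn5 and Flt1 of endothelial cells, Ly6c2 of monocytes, Cd163 and Lyve1 of perivascular macrophages, and Cd3e of T cells. Other members of the same lists gave the counts above, and no oligodendrocyte marker was at 0. No population without early-gene transcripts was present from which free RNA could be measured, and its part in the values was not tested.

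Across the 2639 genes with at least 400 thinned UMIs in library 3 and outside the ranking set, 55 (2.08%) were at least 1.5 times higher in strong cells and 9 (0.341%) at least 1.5 times lower. At 1.2 times, 200 genes (7.58%) were higher and 325 (12.3%) lower. The median log2 ratio of all genes was -0.07, and ratios below are relative to equal depth, not to this median. Of the 55 higher genes, 21 were on the list of 48 early genes or the list of 16 MAP kinase feedback genes, and 34 were on neither.

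**Figure D2:**
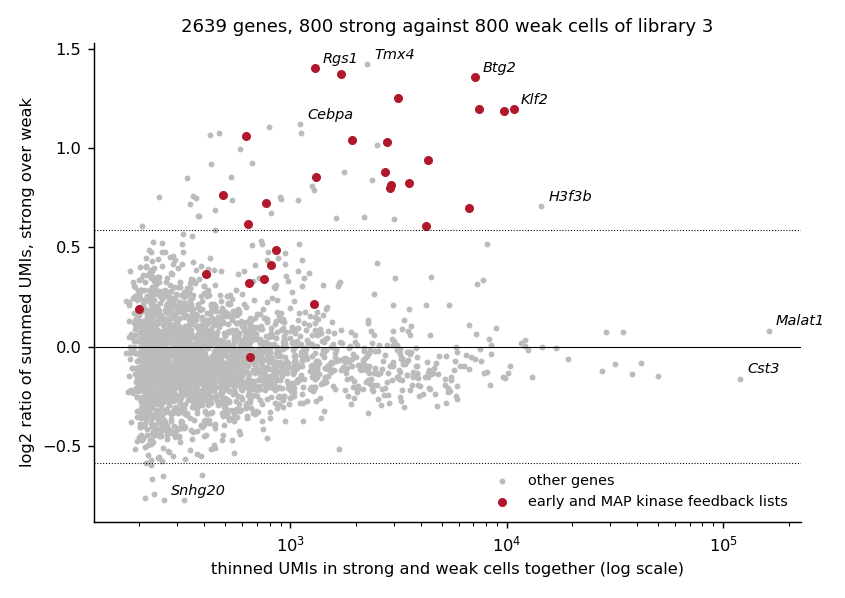
Log2 ratio of summed thinned UMIs, 800 strong over 800 weak cells of library 3 (vertical axis), against the UMIs of both arms together (horizontal axis, log scale), 1 point per gene for 2639 genes, with dotted lines at 1.5 times and members of the early-gene and MAP kinase feedback lists in red. Most of the red points lie above the upper dotted line, and the genes under the lower one have 213 to 390 UMIs.

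Promoters are shown for 5 leading or ranking genes in which a known signal-responsive motif was found, and for Tmx4, the compared gene with the highest ratio, in which none was. The motifs searched on both strands of the 250 bases before each gene's start were the cAMP response element or CRE (TGACGTCA), bound by CREB-type factors, the AP-1 motif (TGANTCA), the EGR motif (GCGGGGGCG) and the CArG box of serum response factor. No matches overlapped in the promoters shown. The sequences are from RefSeq on GRCm38.p6 and run 5′ to 3′ toward the gene's start on the gene's strand, in lower case with matches in capitals. Dusp1 (chr17:26508473-26508722, minus strand), Btg2 (chr1:134079156-134079405, minus strand) and Ppp1r15a (chr7:45526269-45526518, minus strand) hold a CRE, Zfp36 (chr7:28379229-28379478, minus strand) an EGR motif and then a CArG box, Klf2 (chr8:72318812-72319061, plus strand) an EGR motif, and Tmx4 (chr2:134644122-134644371, minus strand) none of the 4.
Dusp1: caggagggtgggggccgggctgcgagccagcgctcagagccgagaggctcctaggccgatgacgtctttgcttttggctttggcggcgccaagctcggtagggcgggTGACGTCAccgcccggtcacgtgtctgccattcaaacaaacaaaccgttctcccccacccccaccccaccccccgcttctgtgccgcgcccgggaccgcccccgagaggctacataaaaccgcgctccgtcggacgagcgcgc
Btg2: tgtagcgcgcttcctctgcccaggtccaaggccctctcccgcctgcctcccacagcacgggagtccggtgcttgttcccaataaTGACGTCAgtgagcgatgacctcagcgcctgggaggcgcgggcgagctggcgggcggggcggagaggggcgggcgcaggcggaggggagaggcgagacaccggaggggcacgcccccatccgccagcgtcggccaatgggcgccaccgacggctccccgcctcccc
Ppp1r15a: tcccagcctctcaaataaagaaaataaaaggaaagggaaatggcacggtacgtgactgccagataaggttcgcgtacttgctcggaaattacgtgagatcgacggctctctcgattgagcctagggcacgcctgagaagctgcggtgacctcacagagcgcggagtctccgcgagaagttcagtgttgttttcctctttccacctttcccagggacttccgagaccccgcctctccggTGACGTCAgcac
Zfp36: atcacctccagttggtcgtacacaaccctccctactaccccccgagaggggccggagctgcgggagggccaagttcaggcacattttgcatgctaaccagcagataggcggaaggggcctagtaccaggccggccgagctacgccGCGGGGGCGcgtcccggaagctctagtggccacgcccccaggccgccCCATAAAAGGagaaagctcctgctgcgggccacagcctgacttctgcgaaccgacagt
Klf2: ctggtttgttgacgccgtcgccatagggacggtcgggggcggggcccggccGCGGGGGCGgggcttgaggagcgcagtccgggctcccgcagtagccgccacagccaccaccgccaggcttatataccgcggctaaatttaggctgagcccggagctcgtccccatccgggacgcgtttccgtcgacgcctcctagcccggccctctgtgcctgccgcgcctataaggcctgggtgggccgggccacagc
Tmx4: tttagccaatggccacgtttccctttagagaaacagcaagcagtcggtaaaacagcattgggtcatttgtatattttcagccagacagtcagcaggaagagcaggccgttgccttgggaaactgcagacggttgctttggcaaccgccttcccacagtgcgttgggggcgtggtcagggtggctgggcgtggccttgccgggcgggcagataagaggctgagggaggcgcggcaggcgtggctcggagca

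The CRE began 143, 166 and 12 bases before the start of Dusp1, Btg2 and Ppp1r15a, and the CArG box 58 bases before that of Zfp36. Of the 55 higher genes, 41 had a promoter sequence: 2 (4.88%) held a CRE, 4 (9.76%) an EGR motif, 1 (2.44%) an AP-1 motif and 1 (2.44%) a CArG box. Among the 2062 compared genes with a promoter these shares were 3.35%, 5.63%, 5.67% and 1.26%, and among all 27025 genes with a promoter they were 1.77%, 2.93%, 7.82% and 1.62%. The 4 genes with an EGR motif were Socs3, Klf2, Tagap and Zfp36, all among the 15 highest ratios. The motifs were chosen after the ratios were seen, and a match is a run of letters, not a measured site.

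Transcription factors of the early response were among the leading genes. Junb had 6742 UMIs in strong cells, 10150 in the 1684 cells between and 2965 in weak cells, a ratio of 2.27 (95% interval 2.18 to 2.38). A strong cell held a median of 8 Junb UMIs (range 0 to 22) and a weak cell 3.5 (0 to 13), so the arms overlapped cell by cell although their sums were far apart. Jund, its AP-1 relative, had 5172 and 2260 UMIs, a ratio of 2.29 (2.18 to 2.41). Klf2, a Kruppel-like factor known to restrain inflammatory gene expression, had 7475 and 3262 UMIs, with a median of 9 per strong cell (0 to 27) and 4 per weak cell (0 to 12) and a ratio of 2.29 (2.20 to 2.39). Klf6 had 2217 and 931 UMIs and a ratio of 2.38 (2.21 to 2.57). Cebpa, a transcription factor of the myeloid lineage that is not counted among the early genes here, had 756 and 348 UMIs, a ratio of 2.17 (1.91 to 2.47). It stood apart from the other microglia transcription factors, of which none of the 13 others compared was past 1.5 times and only Smad7, chosen after its values were seen, at 469 and 382 UMIs was past 1.2 times upward.

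Genes that limit signalling and mRNA were another group, in which Rgs1, Socs3 and Btg2 had higher ratios than the transcription factors above. Btg2, an antiproliferative protein that recruits the CCR4-NOT deadenylase, had 5136 UMIs in strong, 7893 in middle and 2006 in weak cells, a ratio of 2.56 (2.43 to 2.70). A strong cell held a median of 6 Btg2 UMIs (0 to 21) and a weak cell 2 (0 to 10), and 6.25% of weak cells reached the strong median. Zfp36, or tristetraprolin, which binds AU-rich elements and speeds mRNA decay, had 1302 and 632 UMIs, a ratio of 2.06 (1.87 to 2.27). Both regulators were thus higher in strong cells, Btg2 by more. Socs3, the feedback inhibitor of JAK-STAT signalling, had 1232 and 476 UMIs, a ratio of 2.59 (2.33 to 2.88). Rgs1, which speeds GTP hydrolysis by G protein alpha subunits, had 943 and 357 UMIs, a ratio of 2.64 (2.34 to 2.99), and Rgs3 of the same family 318 and 151, a ratio of 2.11 (1.73 to 2.57). Dusp6, a phosphatase for ERK, had 1877 and 920 UMIs, a ratio of 2.04 (1.88 to 2.21). It carried the MAP kinase feedback list: of 16 members 2 were above the count filter, and Dusp7 had 106 and 93 UMIs.

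Further leading genes came from other functions. Tmx4 (ENSMUSG00000034723, GRCm38 chr2:134594185-134644145, minus strand) had a median of 2 UMIs per strong cell (0 to 12) and 1 per weak cell (0 to 5), a ratio of 2.68 (2.44 to 2.94). Ppp1r15a, also called GADD34, which restarts translation under stress by directing a phosphatase to eIF2 alpha, had 422 and 202 UMIs, a ratio of 2.09 (1.76 to 2.48). Tsc22d3, a leucine zipper protein known as a glucocorticoid-induced gene, had 762 and 362 UMIs, a ratio of 2.11 (1.86 to 2.39). Tmx4 thus had the highest ratio of these, with an interval above that of Tsc22d3 and overlapping that of Ppp1r15a. Tagap, which encodes a GTPase-activating protein, had 287 and 137 UMIs, a ratio of 2.095 (1.70 to 2.59). Gm26532 (GRCm38 chr8:84208920-84209609, plus strand), a long intergenic non-coding RNA by its GENCODE annotation, had 544 and 253 UMIs, a ratio of 2.15 (1.85 to 2.51).

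As a list, the early genes outside the ranking set had 53352 UMIs in strong and 27113 in weak cells, a ratio of 1.97 (1.939 to 1.997) and a median log2 ratio of 0.81 over 27 compared members, beside -0.07 over all genes. Of those 27, 20 were at least 1.5 times higher, 25 at least 1.2 times and none lower by either. Over all genes, 2.08% and 7.58% were higher by these folds. The list, like the other lists here, was drawn up with earlier results of these data known. The study itself lists many of its members, such as Junb, Jund and Rhob, among genes that differed between its time points in cells of the DNA synthesis phase. These shares therefore describe the list and are no test of it against all genes. The 20 members below the filter were not called, and 2 of them had no UMI in either arm. The list's members other than the highest included, chosen after their values were seen, Rhob (2829 and 1473 UMIs), Atf3 (845 and 468) and Ier2 (4119 and 2538) at ratios of 1.92, 1.81 and 1.62. Cebpb (692 and 596) and Gadd45g (318 and 329) were the 2 compared members inside 1.2 times, and were named on seeing this. A cell carried 36 to 106 UMIs of the list in the strong arm (median 66) and 13 to 61 in the weak arm (median 34). The highest weak cell, at 61, was thus below the strong median, and 4.38% of weak cells reached the level of 47 UMIs that marks the lowest 5% of strong cells.

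**Figure D3:**
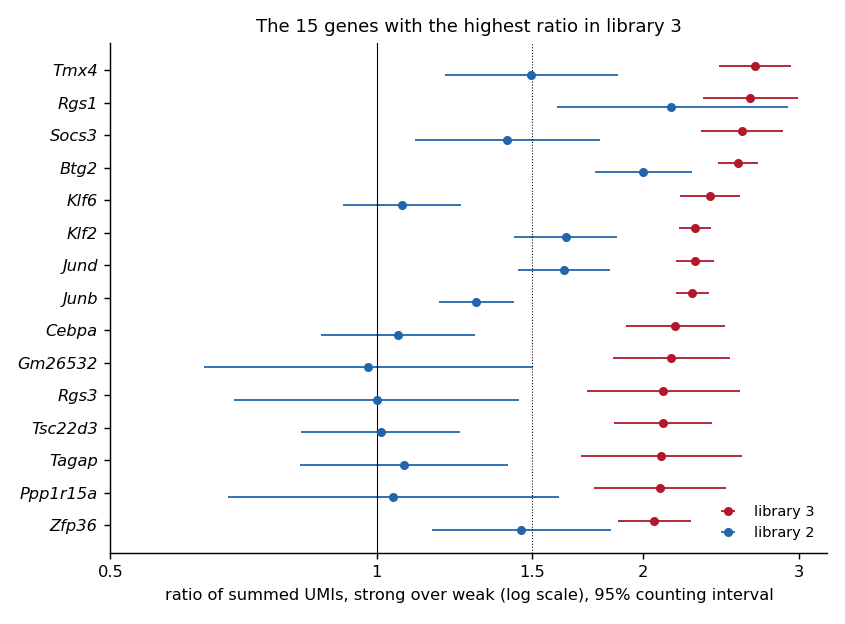
Ratio of summed thinned UMIs, strong over weak cells (horizontal axis, log scale), with 95% counting intervals, for the 15 genes with the highest ratio in library 3 (red) and the same genes under the same rule in library 2 (blue). All 15 lie above 2 in library 3, and of these Rgs1, Btg2, Klf2 and Jund are above 1.5 in library 2.

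Genes of the NF-kB pathway were split. Nfkbiz, a nuclear I-kappa-B protein, had 390 and 196 UMIs, a ratio of 1.99 (1.67 to 2.38), and Nfkbia, the inhibitor of NF-kB, 994 and 635, a ratio of 1.57 (1.42 to 1.73). The other 5 compared members were within 1.2 times, among them Icam1, an adhesion molecule, with 337 and 315 UMIs. Tnfaip3, or A20, the deubiquitinase that limits NF-kB signalling, had 72 UMIs in strong and 38 in weak cells and was below the count filter. The list as a whole had 2884 and 2172 UMIs, a ratio of 1.33 (1.26 to 1.40), with a median log2 ratio of 0.15.

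Of the cytokines and chemokines, 3 of 10 compared were past 1.5 times upward, beside 2.08% of all genes. Ccl3 had 1532 UMIs in strong and 857 in weak cells, a ratio of 1.79 (1.64 to 1.95), Ccl2 675 and 405, a ratio of 1.67 (1.47 to 1.89), and Ccl4, chosen after its values were seen, 1340 and 852, a ratio of 1.57. All 3 recruit leukocytes through CC receptors. Ccl12, of the same family, went the other way with 4536 and 5033 UMIs and a ratio of 0.901 (0.866 to 0.938). The summed list therefore had a ratio of only 1.10, and its highest single cell was in the weak arm, with 100 UMIs. Of Ccl3 alone the weak arm's highest cell held 39 UMIs and the strong arm's 21. Ccl2 was not highest in strong cells: the 1684 cells between the arms held 1627 Ccl2 UMIs, more per cell than either arm. Ccl12 was also highest per cell there, while Ccl3 and Ccl4 lay between the arms. The summed list had a mean of 13.14 UMIs per strong, 13.87 per middle and 11.96 per weak cell.

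Stress genes were higher in part. Over all genes, 2.08% were past 1.5 times upward, 7.58% past 1.2 times upward and 12.3% past 1.2 times downward. Of 14 compared heat shock and chaperone genes, 2 were past 1.5 times: Hspa1a, the inducible HSP70, with 282 and 149 UMIs and a ratio of 1.89 (1.55 to 2.32), and Dnajb1, its co-chaperone, with 501 and 314 and a ratio of 1.60 (1.38 to 1.84). The constitutive Hspa8 had 3474 and 3217 UMIs and the endoplasmic reticulum chaperone Hspa5 2259 and 1955, ratios of 1.08 and 1.16. The list sum had a ratio of 1.09 (1.06 to 1.12). Hspa1a and the nearly identical Hspa1b share reads, so the split between them is uncertain. The ubiquitin gene Ubb (4303 and 3410 UMIs) had a ratio of 1.26 (1.21 to 1.32), and the sum of its list of 16 genes 1.27 (1.23 to 1.30). Of the 8 compared members of that list, 4 were past 1.2 times upward and none downward. Of RNA processing genes, the splicing factor Srsf5 had 1844 and 1180 UMIs, a ratio of 1.56 (1.45 to 1.68), and the nuclear long RNA Neat1 564 and 334, a ratio of 1.69 (1.47 to 1.94). Malat1, a nuclear long RNA like Neat1, had 83331 and 78772, a ratio of 1.06 (1.05 to 1.07). Of the 18 compared members of the list of these genes, 6 were past 1.2 times upward and 4 downward. The list sum had a ratio of 1.065.

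Microglia identity genes differed little. The 25 homeostatic surface and secreted genes, all above the filter, had a median log2 ratio of -0.02. P2ry12, the purinergic receptor that guides microglial processes, had 4170 and 4061 UMIs. Csf1r, the receptor for the survival factors CSF1 and IL34, had 4033 and 3244, a ratio of 1.24 (1.19 to 1.30). Cst3, the protease inhibitor cystatin C and the list's most counted gene, had 56462 and 63093 UMIs, a ratio of 0.895 (0.885 to 0.905), and took the list sum to 0.960 (0.953 to 0.968). This direction of the sum is lost when ratios are divided by the median ratio of all genes, where it became 1.01. Maf, a transcription factor of tissue macrophages, was the member of its list farthest below 1, with 329 and 453 UMIs and a ratio of 0.726 (0.628 to 0.839).

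Genes of immune function were at or somewhat below equal level in strong cells. None of the 7 compared complement genes was past 1.2 times, and C1qa and C1qb, 2 chains of the C1q recognition molecule, had ratios of 0.903 (0.887 to 0.919) and 0.910 (0.892 to 0.929). The cathepsin and lysosome list had a summed ratio of 0.986 over 24 genes (22 compared), the activation list (7 compared, with Fth1 at 7262 UMIs in each arm) 1.01 and the MHC list (5 compared) 0.937. Interferon-stimulated genes had 952 and 1137 UMIs, a ratio of 0.837 (0.767 to 0.913), over 21 genes of which 3 were above the filter. A median cell held 1 UMI of the list in either arm, and the highest held 17 in the strong and 15 in the weak arm.

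Growth and proliferation genes gave small values. Myc, the growth factor-responsive transcription factor, had 139 UMIs in strong and 109 in weak cells, a ratio of 1.28 whose interval of 0.985 to 1.65 includes 1. Cdkn1a, the p21 inhibitor of cyclin-dependent kinases, had 503 and 369, a ratio of 1.36 (1.19 to 1.56), and Ccnl1, a cyclin of RNA processing, 541 and 405, a ratio of 1.34 (1.17 to 1.52). In the UMIs left by the thinning, Cdkn1a was at 1.12 (1.02 to 1.24), Ccnl1 at 1.31 and Myc at 1.08. Myc was not highest in strong cells: after thinning, the 1684 cells between the arms held 336 Myc UMIs. This was more per cell than in either arm, but within the counting interval of the strong arm. Cdkn1a and Ccnl1 lay between the arms in these cells. Mki67, the proliferation marker, had 2 and 1 UMIs, too few to compare. Replication genes below the filter were counted in both arms, as in Pcna (84 and 56 UMIs) and Mcm3 (79 and 89). Both were chosen after their values were seen. Whether the arms differed in cycling cells was not tested. The replication and mitosis list had a ratio of 0.972 (0.921 to 1.03) over 27 genes, of which 5 were above the filter. Its only compared member past 1.5 times was the chromatin protein Hmgb2, with 223 and 132 UMIs. The Hmgb2 ratio of 1.69 was 1.27 in the UMIs left by the thinning. Pfkfb3, which makes the activator of glycolysis, had 155 and 92 UMIs, a ratio of 1.69 (1.29 to 2.21). The glycolysis list of 21 genes, of which 12 were compared, had a summed ratio of 0.904.

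Summed transcripts for protein synthesis and respiration were lower in strong cells by a small amount. Cytosolic ribosomal protein genes had 137612 and 153205 UMIs, a ratio of 0.898 (0.892 to 0.905). Of 83 compared genes 8 were past 1.2 times downward and 1 upward, a share below the 12.3% of all genes past 1.2 times downward. Rps29 had 6206 and 6891 UMIs and Rplp1 3743 and 4099, ratios of 0.901 and 0.913. Mitochondrial mRNAs had 18888 and 21735 UMIs, a ratio of 0.869 (0.852 to 0.886), with 4 of 12 genes past 1.2 times downward. Nuclear genes of oxidative phosphorylation had 19755 and 21698, a ratio of 0.911 (0.893 to 0.928), with 10 of 71 downward, a share near the 12.3% of all genes, and 1 upward. Ribosome biogenesis genes, such as Ncl (513 and 624 UMIs) and Npm1 (483 and 557), had a summed ratio of 0.882 (0.843 to 0.923). The ranking genes and early lists took more of each strong cell's fixed total. With these genes left out of the totals the ribosomal ratio was 0.927. The actin and cytoskeleton list had a ratio of 0.966.

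**Figure D4:**
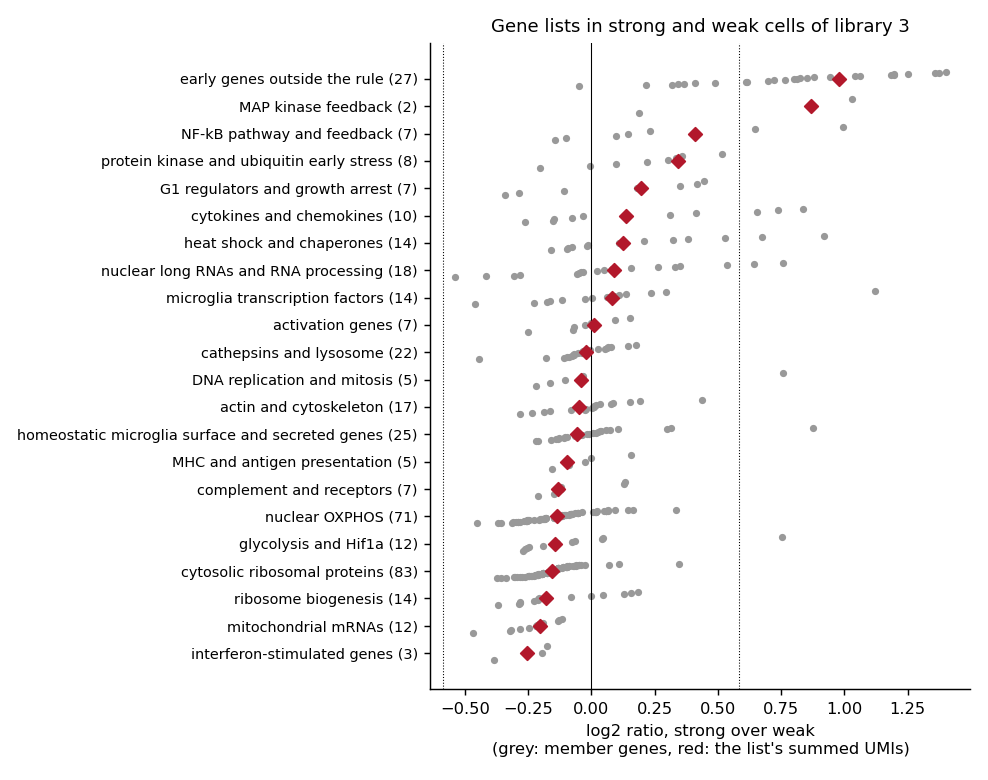
Log2 ratio, strong over weak cells of library 3 (horizontal axis), of the compared members (grey) and of the summed UMIs (red) of 22 gene lists (vertical axis, number of compared members in brackets), with dotted lines at 1.5 times. The early-gene sum lies at a ratio of 1.97 and the interferon-stimulated sum at 0.837, and no member of any list lies below the lower dotted line.

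The 9 genes at least 1.5 times lower in strong cells were on no list. They were the small nucleolar RNA host gene Snhg20, the RNA-binding protein gene Hnrnpr, the RNA polymerase II subunit gene Polr2l, Btf3l4, the metalloprotease gene Nrd1, Il6st, the signal-transducing receptor subunit of the IL-6 family, Pdcd5, Zfp512 and Ift20, a component of intraflagellar transport. Snhg20 had 96 and 164 UMIs, a ratio of 0.585 (0.450 to 0.758), and Hnrnpr 119 and 203, a ratio of 0.586 (0.464 to 0.739). In the UMIs of the same cells that the thinning had not drawn, the median log2 ratio of all genes was -0.07. All 9 were below 1 there, as most genes were, and only Snhg20 stayed 1.5 times lower, at 0.590. Hnrnpr was at 0.762 and Il6st at 0.939 there. Of the 55 higher genes, 54 were at least 1.2 times and 45 at least 1.5 times higher in these remaining UMIs, and Tmx4, Btg2 and Klf2 had ratios of 2.82, 2.52 and 2.33. The gene that was not 1.2 times higher there, chosen after its values were seen, was Commd2. It had 125 and 82 UMIs after thinning and was not above 1 in the remaining UMIs.

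All 3284 cells were also put in 10 rank bins by the same share, from the lowest to the highest, and genes differed in how their level climbed. Junb was higher in every next bin, from 3.38 to 9.13 UMIs per thinned cell, and Klf2 from 3.94 to 9.94. Tmx4 moved only from 0.714 to 0.872 over bins 1 to 4, stood at 1.27 in bin 5 and reached 2.14 in the highest. Rgs1 went from 0.541 to 0.774 and Socs3 from 0.702 to 1.01 between bins 4 and 5. Btg2 went from 3.59 to 4.49 and the early-gene list from 41.27 to 49.05 there. Both had also risen from bin 3, at 2.915 and 36.52, and rose on to 5.28 and 53.95 in bin 6. Their climb thus had no clear step. Ccl3 stepped between bins 4 and 5 as Tmx4 did, from 1.39 to 1.98. It then stayed between 1.82 and 2.05, so that it did not follow the share further. The median depth also stepped there, from 5424 to 6095 UMIs per cell before thinning. The median six-gene share went from 0.94% to 1.12% between the same bins. The part of depth and share in this shape was not tested. Ribosomal protein genes had 193.5 UMIs per thinned cell in bin 1 and 171.4 in bin 10, lower in every next bin with no step.

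**Figure D5:**
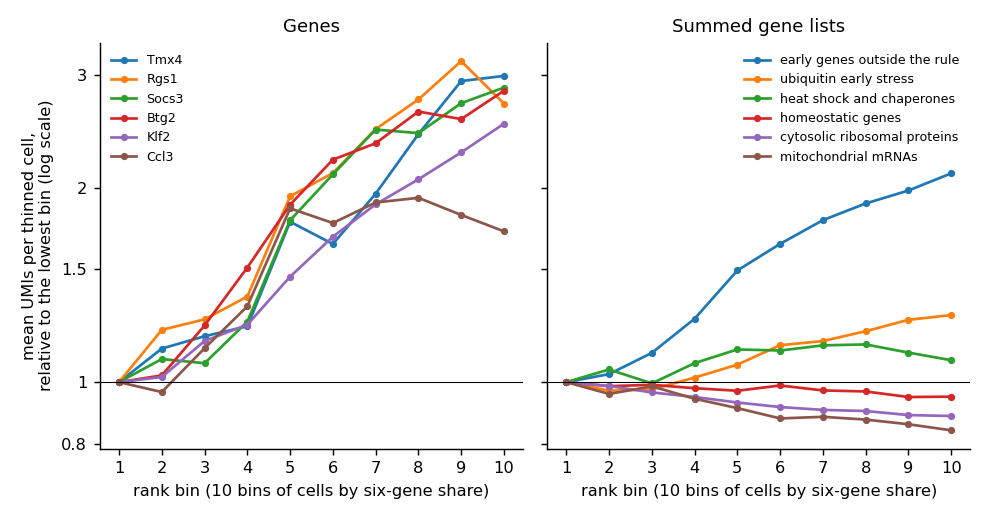
Mean UMIs per thinned cell relative to the lowest bin (vertical axis, log scale) across 10 rank bins of library 3 cells by six-gene share (horizontal axis), for 6 genes and for 6 summed lists. Tmx4, Rgs1, Socs3 and Ccl3 step up between bins 4 and 5, while Btg2 and the early-gene sum climb there with no clear step. Ccl3 is flat after its step, and the homeostatic sum stays near 1.

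The same rule in library 2 gave fewer genes past 1.5 times outside the ranking set. There 800 cells were set against 800 of 3569. As a description, in the random part of the UMIs that had not chosen the cells, Fos, Fosb and Dusp1 had ratios of 2.81, 3.84 and 2.48 in library 2 beside 2.82, 3.57 and 2.40 in library 3, and Jun and Klf4 1.80 and 1.82 beside 2.25 and 3.53. Among the other genes, 9 of 2527 genes (0.356%) were at least 1.5 times higher and 2 (0.0791%) lower, with 149 (5.9%) and 119 (4.71%) past 1.2 times. Of the 55 genes, 41 were compared there, 37 lay above 1, 18 were past 1.2 times and 7 past 1.5 times. Btg2 had 738 and 369 UMIs in library 2, a ratio of 2.0 (1.76 to 2.27), Rgs1 144 and 67, a ratio of 2.15 (1.60 to 2.92), and Klf2 587 and 359, a ratio of 1.64 (1.43 to 1.87). Klf6 had 349 and 327, Cebpa 208 and 197, and Nfkbia 309 and 313, ratios of 1.07, 1.06 and 0.987. Tmx4 was between these groups with 200 and 134 UMIs, a ratio of 1.49 (1.19 to 1.87). The early list had a ratio of 1.26 in library 2 against 1.97 in library 3, and of the 9 lower genes 6 were below 1 and none was 1.5 times lower. The SD of the six-gene share in library 2 was 0.0609%, where counting alone would give 0.0400%. After thinning, a cell there held a median of 2 six-gene UMIs, beside 24 in library 3. Cells of library 2 were thus ranked on fewer counts, so ratios of the 2 libraries are not like for like. The part of this in the lower ratios of library 2 was not tested.

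In most of these genes the weak arm of library 3 was above the strong arm of library 2. The six-gene share was also higher in that weak arm, with a median of 0.683% beside 0.160%. The shares of these arms overlapped only in their tails. Weak cells of library 3 had 3262 Klf2 UMIs where strong cells of library 2 had 587, and 2006 Btg2 UMIs where these had 738. Of the 55 genes, 52 had more UMIs in the weak arm of library 3 than in the strong arm of library 2. For 44 of the 55 it was at least 1.5 times as many. Over the 2527 genes past the count filter in both libraries, 1229 had more and 67 at least 1.5 times as many. The 55 genes were chosen by a filter in library 3 alone, and only 41 of them passed it in library 2. That choice favours genes with more UMIs in library 3. These counts are therefore not like for like and are a description only. Libraries differ in time point and in animals, and what separates them cannot be told apart here. In library 1, with 99 cells per arm out of 408, counts were too few to compare: Tmx4 had 26 and 20 UMIs, Btg2 66 and 83, and Junb 96 and 86.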

How the data were processed

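YFP (+) lumbar microglia were sequenced by droplet scRNA-Seq (10x, 3′ kit), 1 library per time point. The authors deposited raw UMI counts per gene and cell, not normalized, joined in 1 matrix (27998 genes, 7522 cells). The submitters' processing notes name Cell Ranger 2.1.1 and mm10. For the cell-calling rule, the annotation and any down-sampling, the sources used here give nothing.

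From these counts, cells of at least 2000 UMIs were ranked by six-gene share and thinned to 2000 UMIs without replacement (seed 1). UMIs were summed per arm, and genes with at least 400 thinned UMIs in the library, without the 6 ranking genes, were compared by ratio. Intervals are exact Poisson, binomial or conditional ones at 95%. No test was made: cells share 1 library. The members, gene lists and folds were chosen with earlier results of these data known. Named genes were the ranking genes, the 15 highest and 15 lowest ratios, in each list the 2 most counted and the 2 farthest from equal among members past that minimum, and Myc, Tnfaip3, Mki67 and P2ry12; some genes this rule names are not reported here, and others are marked as chosen after their values were seen. Gene positions are GENCODE M21 (GRCm38). The ratio step was tested on simulated cells. Doublets were kept. Alternatives changed scaling, thinning, choice of cells, depth and filters. Python 3.11.15 was used.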

Additional observations from a re-analysis of the deposited data

How the results depend on the processing

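The early-gene list stayed above a ratio of 1 under every alternative run, between 1.62 and 2.11. It was 1.62 with 1600 cells in each arm and 2.11 (2.105) with 400, 1.87 when ranked on thinned counts, 1.90 (1.895) when ranked on one random part of the UMIs and measured on the other, 1.88 when ranked within bins of UMIs, 1.94 (1.935) and 1.89 with Fos or Jun left out of the score, 1.94 (1.937) without cells holding proliferation or globin UMIs, 2.03 with early genes left out of the totals and 2.07 when divided by the median ratio. In these last 2 settings heat shock genes had 1.13 (1.125) and 1.15 (1.148), homeostatic genes 0.991 and 1.01, and ribosomal protein genes 0.927 and 0.946 (0.9455). Heat shock was 1.13 (1.126) in that random split and 1.04 within bins. Homeostatic genes were 0.978 at 1600 cells, 0.952 (0.9515) at 400 and 0.969 within bins, and ribosomal protein genes 0.929, 0.886 and 0.890 (0.8895), with 0.906 on thinned ranks and 0.891 in the UMIs the thinning had not drawn, a setting chosen after seeing the data, as were the settings that left out shared barcodes or the cell with nearly 1 UMI per gene. The count of 55 higher genes became 27 at 1600 cells, 200 at 1.2 times and 201 with genes from 100 UMIs (6721 genes compared). The count of 9 lower genes was the least stable: 0 at 1600 cells and with genes from 1000 UMIs, 51 at 400 cells, 52 in the random split, 258 from 100 UMIs, 15 with another seed, 5 after division by the median, 4 in cells of at least 4000 UMIs, 3 without thinning and in the undrawn UMIs, and 325 at 1.2 times. Il6st reversed, to 1.16 (1.158), in the random split. The cause of these changes was not tested. No paired analysis was possible because each group is 1 library with no replicates, so leaving out a replicate was not possible either. Depth limits genes below 400 thinned UMIs, and intervals carry no spread between animals.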

Other observations

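Adamts1, which encodes a secreted metalloprotease, had the largest ratio in library 2 of the 2527 genes compared in both libraries, with 162 UMIs in the 800 highest and 54 in the 800 lowest cells, and 1671 and 827 UMIs in strong and weak cells of library 3, a ratio of 2.02. H3f3b, a gene for the replacement histone H3.3, was the most counted of the 55 higher genes, with 8942 and 5472 UMIs and a ratio of 1.63. The linker histone genes Hist1h1c (343 and 190 UMIs) and H1f0 (230 and 137) were also past 1.5 times, at ratios of 1.81 and 1.68. The feedback inhibitor Spry1 (65 and 12 UMIs) and the early transcription factor Egr2 (124 and 47) were below the count filter. All of these genes were chosen after their values were seen.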
